A study of Rattus norvegicus with 7 samples.

Results

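In S16, a rat Schwann cell line, 3538 acetylated regions held peaks of both nuclear receptors mapped in the series, NR2F2 and RXRG, and no peak of YY1, TEAD1 or SREBP1. They are called NR2F2-RXRG regions here. Each is a peak of H3K27ac, the acetylation of histone H3 found at active enhancers and promoters, that shares at least 1 bp with a peak of each receptor and none with the 3 other factors. They make up 3.56% of the 99514 H3K27ac peaks outside the mitochondrial genome. The members were chosen on the overlaps of the peak lists, so their counts are a description and not a finding.

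NR2F2, also called COUP-TFII, is an orphan nuclear receptor that binds short direct repeats in DNA as a dimer. RXRG is a retinoid X receptor, one of the shared partners with which the receptors for retinoic acid, thyroid hormone, vitamin D and oxysterols bind DNA. COUP-TF proteins can bind the same kinds of repeats as RXR dimers and can pair with RXR. YY1 is a zinc finger protein needed for peripheral myelination, TEAD1 is among the factors through which YAP and TAZ reach DNA, and SREBP1 activates genes of lipid synthesis.

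The series has 7 samples. In untreated S16 cells, NR2F2, RXRG, YY1 and TEAD1 were mapped by CUT&RUN, an assay that uses an antibody to bring a nuclease to the protein and cut out the DNA beneath it, and H3K27ac was mapped by ChIP-seq. SREBP1 was mapped by ChIP-seq, next to an input, in sciatic nerve of wild-type rats at postnatal day 15, a whole tissue and not the cell line. Each target has 1 library, so there is no replicate error, the S16 results rest on 1 cell line, and the read depth is unknown. Intervals below are exact 95% binomial intervals, or the matching order-statistic intervals for medians. They cover counting error only, and neighbouring peaks are not independent. No comparison below has a test between samples.

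Acetylated regions with both receptors held each of the other factors at a higher share than H3K27ac peaks at large. Both receptors met 12886 H3K27ac peaks. YY1 was in 8894 of these (69.0%, 68.2 to 69.8%), against 30.9% of all H3K27ac peaks. TEAD1 was in 5934 (46.1%, 45.2 to 46.9%) against 19.0%, and nerve SREBP1 in 3668 (28.5%, 27.7 to 29.3%) against 15.0%. Of the 3992 without YY1, 454 were left out because they held TEAD1 or SREBP1. The other 88.6% (87.6 to 89.6%) held neither, against 92.3% of all H3K27ac peaks without YY1. TEAD1 without YY1 or SREBP1 was found in 392 regions, SREBP1 without the other 2 in 55, and TEAD1 with SREBP1 but without YY1 in 7. The NR2F2-RXRG regions were 27.5% (26.7 to 28.2%) of the acetylated regions with both receptors, whereas 63.8% of all H3K27ac peaks held none of the 3 other factors. They were still the most numerous of the 8 combinations. Regions with YY1 and TEAD1 followed with 2990, those with all 3 other factors with 2545, and those with YY1 alone with 2298. The shares above were not divided by H3K27ac width. Its median was 1105.5 bp in regions with both receptors and another factor, 613.5 bp in members and 737 bp in all H3K27ac peaks. A wider region meets each list more readily, and the part of width in these shares was not tested.

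**Figure D1:**
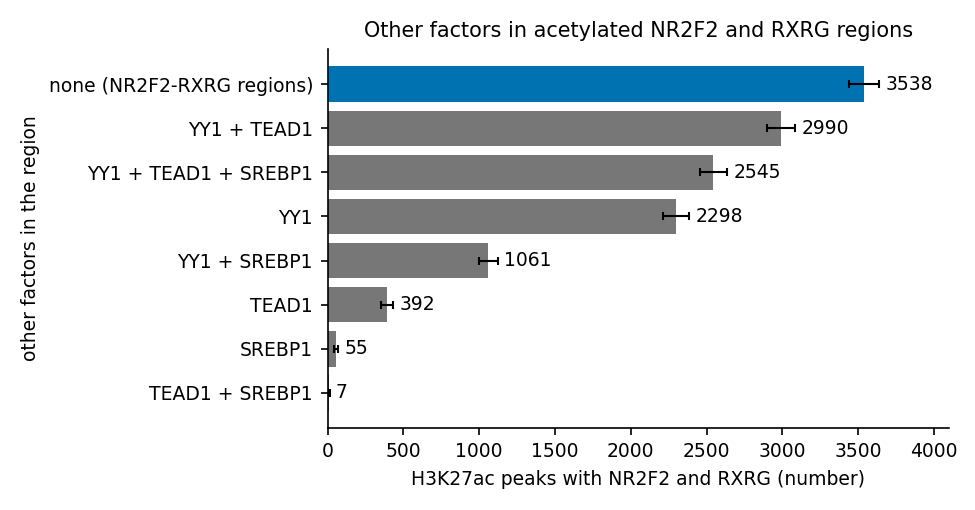
Number of H3K27ac peaks with NR2F2 and RXRG (horizontal axis) for each combination of the other factors (vertical axis), with exact 95% binomial intervals as bars. The blue bar is the 3538 NR2F2-RXRG regions, and the combinations that hold SREBP1 without YY1 number 55 and 7.

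Few members lay at the edge of the rule. The smallest overlap of a receptor peak with its region was 1 bp, and in 67 of the 3538 regions the lesser receptor covered less than 50 bp. The nearest peak of an excluded factor began 4 bp from the closest member, and 12 members had one within 50 bp. On the other side, 13 of the 9348 regions with both receptors and another factor met that factor by less than 50 bp, the smallest overlap being 4 bp. Asking for NR2F2 and RXRG peaks at or above the median width of their lists lowered the number of regions to 1615, since fewer receptor peaks then enter.

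NR2F2-RXRG regions were of intermediate width. Their median H3K27ac width was 613.5 bp (599 to 629 bp), with the middle 50% from 406 to 900 bp. Regions with both receptors and another factor had a median of 1105.5 bp (1091 to 1118 bp). Regions with NR2F2 alone had 444 bp, those with RXRG alone 632 bp, and those with no factor 497 bp. A wide region meets each excluded list more readily, but also each receptor list that the rule requires. The part of the rule in these widths was not tested. Divided into 4 classes of H3K27ac width, the members made up 2.77% of the narrowest peaks (231 to 367 bp), 6.15% of those of 368 to 737 bp, 3.67% of those of 738 to 1233 bp and 1.64% (1.49 to 1.81%) of the widest. The pair without the other factors was thus most frequent among peaks somewhat below the median width of the whole list, 737 bp.

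Most NR2F2-RXRG regions held 1 peak of each receptor. NR2F2 was present once in 3323 regions, in 2 peaks in 206 and in 3 peaks in 9. RXRG was present once in 3286, in 2 peaks in 243 and in 3 peaks in 9. The share with 2 or more NR2F2 peaks was 6.08% (5.31 to 6.92%), against 11.9% (11.3 to 12.6%) of the regions with another factor, which are wider, and 2.61% of the regions with NR2F2 alone. With the narrower receptor peaks left out it was 2.17%. For RXRG the shares were 7.12% (6.30 to 8.02%), 14.7% and, in regions with RXRG alone, 2.75%.

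The rule asks only that both receptors meet the region, but in most members they also met each other. NR2F2 and RXRG peaks overlapped directly in 3290 of 3538 NR2F2-RXRG regions, 93.0% (92.1 to 93.8%), against 92.1% of all acetylated regions with both receptors. The share is therefore close to the background and is not a result about the members. In regions with another factor it was 91.7% (91.2 to 92.3%).

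At a given width of the acetylated peak the order turned. Among H3K27ac peaks of 368 to 737 bp, the receptors overlapped in 95.2% of the NR2F2-RXRG regions (94.0 to 96.2%) and in 98.7% of the regions with another factor (98.1 to 99.2%). Among those of 738 to 1233 bp the shares were 90.5% (88.4 to 92.3%) and 95.7% (95.02 to 96.4%). The narrowest class gave 98.3% and 99.7%, and the widest 81.6% (77.5 to 85.3%) and 84.2% (83.0 to 85.3%), and in these classes the intervals overlap. In all 4 width classes the share was thus lower where YY1, TEAD1 and SREBP1 were missing, while the pooled share was slightly higher. Receptor peaks were also narrower in the NR2F2-RXRG regions (values below), and the part of peak width in this difference was not tested.

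The receptor peaks lay close to each other. The median distance between the midpoints of the nearest NR2F2 and RXRG peaks was 72 bp (67.5 to 76 bp), with the middle 50% from 27.5 to 155.5 bp. In 39.9% of the members the midpoints lay within 50 bp, in 61.4% within 100 bp and in 88.4% within 250 bp. Regions with another factor had a median of 89.5 bp (87 to 92 bp), and 53.8% of them had midpoints within 100 bp. By width class the medians were 38.5 bp in members and 30.25 bp in regions with another factor in the narrowest peaks, 75 and 55.5 bp in the next class, 99.25 and 91.5 bp in the third, and 92.5 and 128 bp in the widest. The pooled difference thus had its sign only in the widest class.

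**Figure D2:**
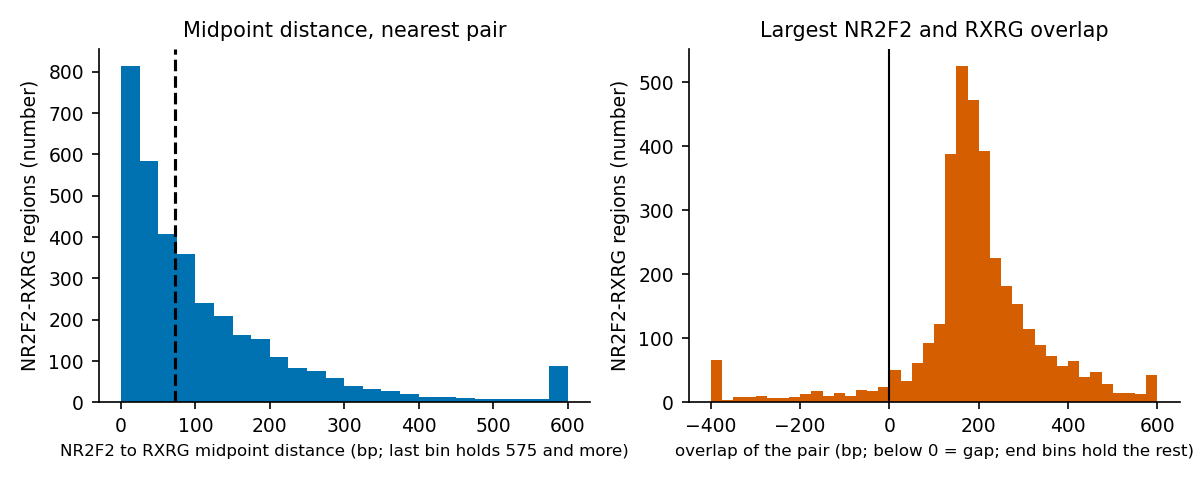
Left, distance between the midpoints of the nearest NR2F2 and RXRG peaks in each NR2F2-RXRG region (bp, dashed line at the median of 72 bp). Right, the largest overlap of an NR2F2 with an RXRG peak (bp, gaps below 0). The vertical axes count regions, and 3290 of the 3538 lie to the right of 0.

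Where the peaks overlapped, the RXRG peak was covered to a larger share than the NR2F2 peak. The overlap had a median of 194 bp (191 to 198 bp). In 1585 of the 3290 overlapping members (48.2%, 46.5 to 49.9%) the whole RXRG peak was inside the NR2F2 peak, in 203 (6.17%) the NR2F2 peak was inside the RXRG peak, and in 1502 (45.7%) each reached beyond the other. A median of 98.8% of the RXRG peak was covered by NR2F2, and a median of 58.7% of the NR2F2 peak by RXRG. NR2F2 peaks are the wider ones by their lists (median 303 against 184 bp), and NR2F2 was the wider peak in 2574 of the 3129 members with 1 peak of each (82.3%). In the 248 members without direct overlap the gap between the receptors had a median of 186 bp.

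Both receptors had wider peaks in NR2F2-RXRG regions than in acetylated regions with only 1 of them, and narrower peaks than in regions that also held another factor. The NR2F2 peaks of the members had a median width of 342 bp (334 to 349 bp), against 289 bp (285 to 293 bp) where NR2F2 was alone and 444 bp (438 to 450 bp) where another factor was present. RXRG peaks had a median of 211 bp (208 to 215 bp) in the members, 184 bp (182 to 187 bp) where RXRG was alone and 294 bp (289 to 298 bp) with another factor. The classes are defined by overlaps, which a wider peak makes more readily, and the part of this in the order was not tested.

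Outside acetylated chromatin, 1949 NR2F2 peaks shared a site with an RXRG peak. These peaks overlap directly by their definition, and the sites were not filtered for YY1, TEAD1 or SREBP1. The members lack these factors, and their widths include regions without direct overlap, so the sets are not alike. At the sites outside acetylation NR2F2 peaks had a median width of 290 bp (283 to 295 bp), below the 342 bp of the NR2F2-RXRG regions. RXRG peaks had 206 bp (202 to 212 bp), an interval that overlaps that of the members. The overlap of the 2 peaks was 169 bp (165 to 174 bp), against 194 bp in the members and 265 bp (261 to 269 bp) in acetylated regions with another factor. The distance between the midpoints of overlapping peaks was 70.5 bp (65.5 to 75.5 bp) outside acetylation and 63.5 bp (60 to 67.5 bp) in the members. These intervals overlap. With another factor it was 81.5 bp (79.5 to 84 bp).

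Within the members, the widths of the 2 receptor peaks were only loosely related. Over the 3129 regions with 1 peak of each, Spearman's rho was 0.24 between NR2F2 and RXRG width, 0.22 between H3K27ac and NR2F2 width and 0.13 between H3K27ac and RXRG width, given as a description over regions of the same libraries. From the narrowest of 4 equal groups of NR2F2 peaks (203 to 256 bp) to the widest (498 to 1710 bp), the median RXRG width went from 191 bp (188 to 197 bp) to 255 bp (244 to 270 bp). Direct overlap with RXRG went from 86.0% to 98.5% over the same groups, and a wider peak overlaps more readily by its width.

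In the members, the receptors sat towards the middle of the acetylated region. Positions were taken only for midpoints inside the H3K27ac peak, and those outside were counted apart. On a scale from 0 at the edge to 1 at the centre of the H3K27ac peak, the median NR2F2 midpoint lay at 0.687 and the median RXRG midpoint at 0.630. In regions with another factor these were 0.723 and 0.686, and where a receptor was alone they were 0.628 for NR2F2 and 0.518 for RXRG. The midpoint fell outside the H3K27ac peak for 5.02% (4.35 to 5.77%) of NR2F2 and 5.48% (4.77 to 6.25%) of RXRG peaks in the members. These shares were 1.42% and 1.34% in regions with another factor, and 8.98% and 11.9% where the receptor was alone. Peaks wholly inside the acetylated region were 53.1% of the NR2F2 and 71.4% of the RXRG peaks of the members.

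**Figure D3:**
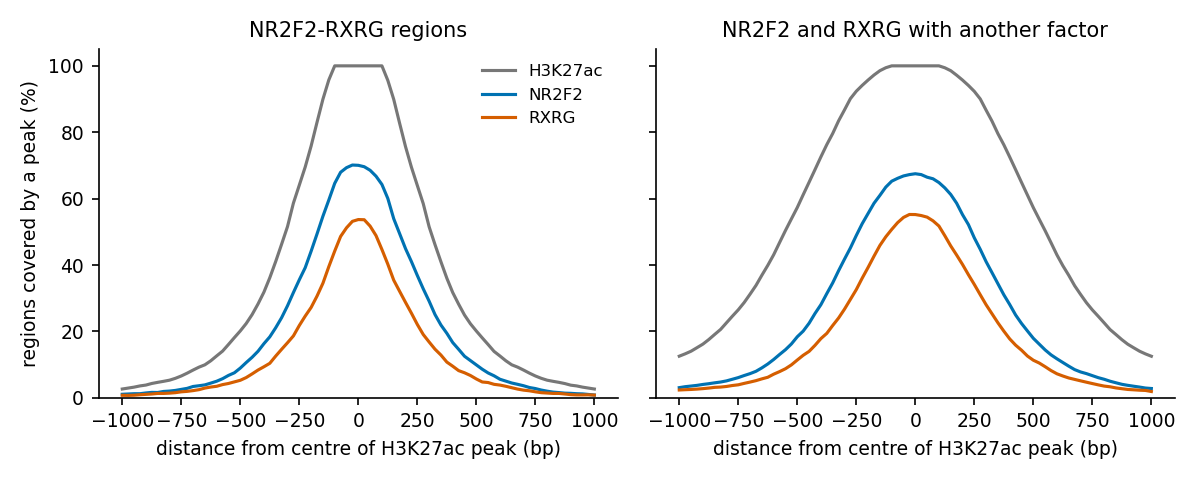
Share of regions (%) with an H3K27ac, NR2F2 or RXRG peak at each distance from the centre of the H3K27ac peak (bp), in NR2F2-RXRG regions (left) and in acetylated regions with both receptors and another factor (right). At the centre, NR2F2 covered 70.0% and RXRG 53.7% of the NR2F2-RXRG regions, against 67.5% and 55.2%, while acetylation at 500 bp from the centre was present in 20.1% against 57.3%.

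NR2F2-RXRG regions lay far from YY1, and so did regions with NR2F2 alone. The nearest YY1 peak was a median of 39.1 kb (36.0 to 42.5 kb) from the edge of a member, 36.4 kb (34.8 to 38.4 kb) where NR2F2 was alone, 15.0 kb (14.6 to 15.6 kb) where RXRG was alone and 14.8 kb (14.7 to 15.0 kb) in regions with no factor. In 1587 members (44.9%, 43.2 to 46.5%) no YY1 peak lay within 50 kb, against 20.7% of all H3K27ac peaks free of YY1, TEAD1 and SREBP1. That share was 42.6% for NR2F2 alone, 17.6% (16.5 to 18.7%) for RXRG alone and 16.2% for no factor. All 4 classes lack the excluded factors by the same rule, but the rule did not remove equal shares. It kept 27.5% of the acetylated regions with both receptors, against 63.8% of all H3K27ac peaks. The part of this unequal removal in the distances was not tested. The members' median was above that of regions with no factor, and above that of regions with RXRG alone, on 21 of 21 chromosomes, and above that of NR2F2 alone on 14.

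TEAD1 and SREBP1 were also farther from the members than from regions with RXRG alone or no factor. The nearest TEAD1 peak was a median of 50.6 kb (47.0 to 54.4 kb) from a member, 47.3 kb (45.1 to 49.3 kb) where NR2F2 was alone, 24.1 kb where RXRG was alone and 21.5 kb with no factor. For nerve SREBP1 the medians were 58.5 kb (53.1 to 62.3 kb), 58.9 kb (55.6 to 62.9 kb), 18.4 kb and 18.3 kb in the same order. A peak of any of the 3 lay within 10 kb of 33.0% of the members (31.5 to 34.6%), against 33.4% of regions with NR2F2 alone, 50.2% of those with RXRG alone and 52.7% of those with no factor. Short distances were rare in each class. Of the members, 130 (3.67%, 3.08 to 4.35%) had one of the 3 within 1 kb. The share was 3.27% (2.86 to 3.73%) for NR2F2 alone, 5.86% for RXRG alone and 7.65% for no factor.

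The distance to YY1 went with sparse acetylation around the region. YY1 was in 30.9% of all H3K27ac peaks and, by the rule, in no member. Fewer surrounding H3K27ac peaks thus leave fewer that could hold YY1, so these measures are not independent. Within 50 kb of its edges, a member had a median of 3 other H3K27ac peaks, as had regions with NR2F2 alone, against 8 around regions with RXRG alone or with no factor and 6 around regions with both receptors and another factor. No other H3K27ac peak was found in that window for 16.8% (15.5 to 18.0%) of the members and 3.85% (3.68 to 4.02%) of the regions with no factor. With the number of surrounding peaks held at 4 or more, the medians lay close together. At 4 to 7 surrounding peaks the median distance to YY1 was 18.5 kb (17.2 to 20.4 kb) in members and 16.6 kb (16.2 to 17.0 kb) with no factor. These intervals do not overlap. At 8 to 10 it was 11.2 kb (9.15 to 13.1 kb) and 11.4 kb (11.2 to 11.7 kb). With 11 or more it was 8.54 kb (7.67 to 9.59 kb) in members and 9.67 kb (9.48 to 9.89 kb) with no factor.

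The difference was larger where acetylation was sparsest, which held 2058 of the 3538 members (58.2%) and 10197 of 48650 regions with no factor. With 0 other peaks in the window the medians were 163 kb (148 to 181 kb) in members and 135 kb (128 to 142 kb) with no factor. With 1 they were 107 kb (97.8 to 118 kb) and 73.9 kb (70.6 to 77.4 kb), with 2 they were 63.1 kb (53.2 to 73.8 kb) and 43.1 kb (41.0 to 45.6 kb), and with 3 they were 36.9 kb (31.5 to 43.8 kb) and 28.2 kb (26.7 to 29.3 kb). At each of these 4 counts the members lay farther from YY1 than regions with no factor, with intervals that do not overlap. Their intervals overlapped those of regions with NR2F2 alone at each count, which had medians from 180 kb (167 to 191 kb) at 0 other peaks to 35.4 kb (32.9 to 38.3 kb) at 3.

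Divided by the width of the H3K27ac peak, the members and the regions with NR2F2 alone came apart. In the narrowest class the median distance to YY1 was 38.5 kb (31.4 to 49.5 kb) in members and 50.1 kb (45.5 to 55.2 kb) with NR2F2 alone. In the next class it was 48.6 kb (43.8 to 54.9 kb) against 38.6 kb (35.9 to 42.2 kb), and in the third 41.2 kb (34.8 to 46.7 kb) against 27.7 kb (24.2 to 31.1 kb), both with intervals that do not overlap. In the widest class the medians were 18.0 kb (16.2 to 20.9 kb) and 16.1 kb (14.3 to 18.3 kb). Regions with no factor had 17.0, 14.5, 13.8 and 12.6 kb in the 4 classes, and those with RXRG alone 20.4, 15.1, 14.2 and 12.6 kb, below the members in each.

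**Figure D4:**
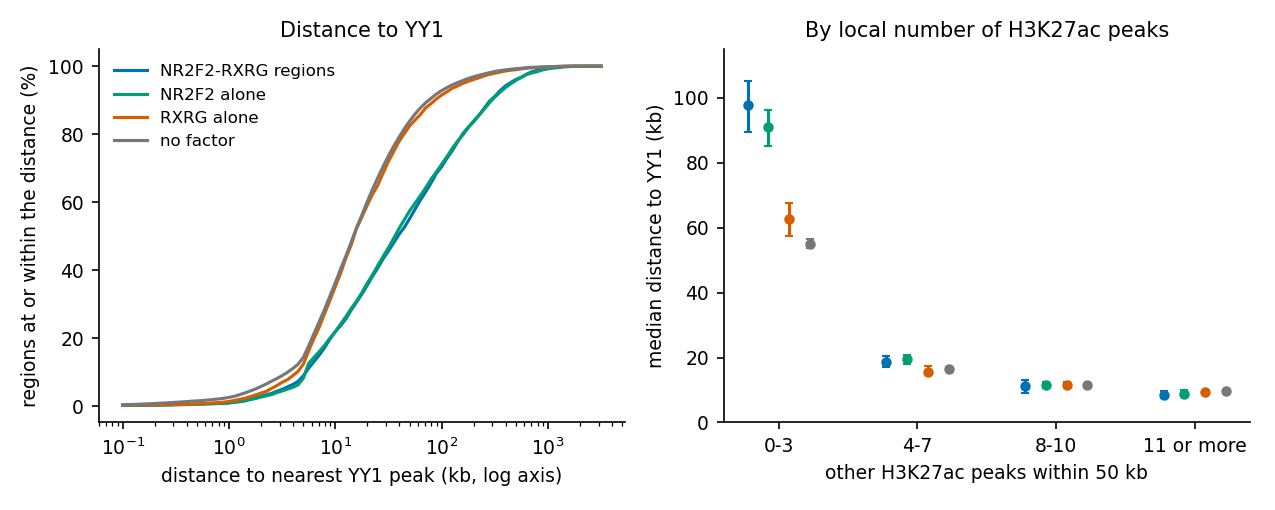
Left, cumulative share of regions (%) by the distance from the region's edge to the nearest YY1 peak (kb, log axis), for NR2F2-RXRG regions and for regions with NR2F2 alone, RXRG alone or no factor. Right, median distance (kb) with its 95% interval by the number of other H3K27ac peaks within 50 kb. Over all widths the NR2F2-RXRG regions lie close to those with NR2F2 alone, and at 4 to 7 surrounding peaks the 4 medians lie between 15.7 and 19.4 kb.

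The acetylated neighbours of NR2F2-RXRG regions held the receptors at higher shares than H3K27ac peaks at large, and YY1 at the same share. Of the 14807 neighbours within 50 kb, counted once for each member they surround, 33.7% held NR2F2, against 25.5% of all H3K27ac peaks and 18.2% of the neighbours of regions with no factor. RXRG was in 25.8% of the neighbours, against 20.5% of all peaks and 16.5% around regions with no factor. YY1 was in 30.9% of the neighbours and in 30.9% of all H3K27ac peaks, TEAD1 in 20.7% and 19.0%, and SREBP1 in 12.4% and 15.0%. Of the neighbours of regions with NR2F2 alone, 31.7% held NR2F2, 23.1% RXRG and 29.6% YY1. Members with many neighbours weigh most in these pooled shares, and the 593 members with no other H3K27ac peak within 50 kb add nothing to them. The shares were not divided by the number of surrounding peaks. They therefore do not describe the neighbours of members in sparse acetylation, where the distances to YY1 were longest.

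Members had another member as nearest neighbour at a higher share than all H3K27ac peaks free of the 3 excluded factors, a set that includes the members. Regions with NR2F2 alone neighboured members at a similar share, and most members had no member beside them. The nearest acetylated neighbour was another member for 312 regions (8.82%, 7.90 to 9.80%), against 3.79% of all H3K27ac peaks free of the 3 excluded factors, and 8.85% (8.18 to 9.55%) for regions with NR2F2 alone. It was a region with NR2F2 alone for 17.1% of the members and for 5.28% of the regions with no factor. With the narrower receptor peaks left out, a setting that leaves fewer members to meet, the share was 3.84%. Along the chromosome, 2949 members (83.4%, 82.1 to 84.6%) had no member as the next H3K27ac peak on either side, against 93.1% of all H3K27ac peaks and 83.9% of regions with NR2F2 alone. Of the rest, 494 stood in runs of 2, 87 in runs of 3 and 8 in 2 runs of 4. The distance to the nearest H3K27ac peak of any class had a median of 9879 bp (9224 to 10661 bp) in members and 5016.5 bp with no factor.

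When H3K27ac peaks were joined across gaps of up to 10 kb, the share standing by themselves was similar in members and in regions with NR2F2 alone. Of the members, 49.6% (48.0 to 51.3%) joined no other peak, against 47.3% of regions with NR2F2 alone, 37.6% of those with both receptors and another factor, 26.9% of those with RXRG alone and 23.5% of those with no factor. The joined region held YY1 for 25.4% of the members (23.9 to 26.8%), 25.9% of regions with NR2F2 alone, 48.1% of those with RXRG alone and 48.9% of those with no factor. By the rule, a region of these classes that joined no other peak could not hold YY1. The shares with YY1 thus follow in part from the shares standing by themselves, and that part was not tested. No joined region held more than 4 members, and 3 held that many. In the 1 of these with the most H3K27ac peaks, on chromosome 10 from 87323256 to 87430151 (107 kb, build rn5), 4 of 20 H3K27ac peaks were NR2F2-RXRG regions and 2 held YY1.

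NR2F2-RXRG regions were most frequent on the X chromosome. Its 168 members were 74.4 per 1000 H3K27ac peaks (63.9 to 86.0), against 34.7 (33.6 to 35.9) on the 20 autosomes together. Among the autosomes the rate ran from 22.1 on chromosome 10 to 46.3 on chromosome 9. Both receptors together were also more frequent on X, at 198 per 1000 H3K27ac peaks against 128 on the autosomes, and within these regions the members made up 37.7% (33.2 to 42.3%) on X and 27.1% (26.3 to 27.9%) on the autosomes. Among autosomes the members' share of the regions with both receptors was highest on chromosome 13, at 35.4%, and lowest on chromosome 19, at 18.7%. YY1 met 31.8% of the H3K27ac peaks of X and 30.9% of those of the autosomes.

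**Figure D5:**
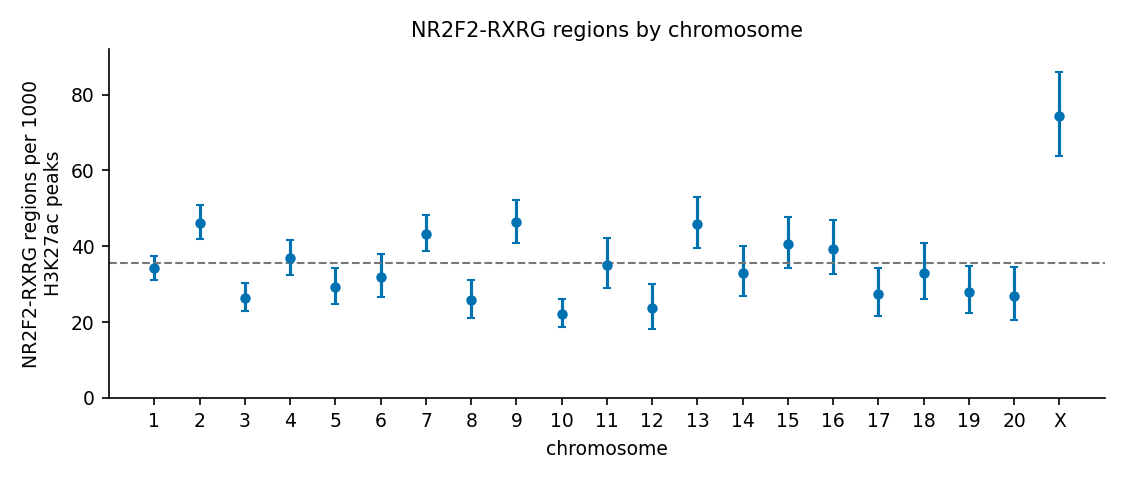
NR2F2-RXRG regions per 1000 H3K27ac peaks (vertical axis) on each chromosome (horizontal axis), with exact 95% binomial intervals. The dashed line is the rate over all 21 chromosomes, and X, at 74.4, lies above every autosome.

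Single regions show the range of forms, named by position on build rn5. The member with the most bases shared by the 2 receptors was at chromosome 10, 87636872 to 87638649. This 1778 bp region held 2 NR2F2 and 2 RXRG peaks that shared 982 bp, and its widest NR2F2 peak was 978 bp. Next came chromosome 16, 34156468 to 34157859, where 1 NR2F2 peak of 1302 bp overlapped 3 RXRG peaks over 949 bp. In the fourth by this measure, at chromosome 20, 49372835 to 49373669, 1 peak of each receptor, 1097 and 1054 bp wide, shared 861 bp, and the RXRG peak extended beyond the 835 bp acetylated peak on both sides. The midpoints of the nearest receptor peaks were 67, 150 and 214.5 bp apart in these 3 regions, against an upper quartile of 155.5 bp over all members.

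The widest members were of another form. The widest, 7070 bp at chromosome X, 110849665 to 110856734, held 1 NR2F2 peak of 275 bp and 1 RXRG peak of 144 bp that shared 12 bp, and its nearest YY1 peak was 342 kb away. At chromosome 2, 68029693 to 68033558, the NR2F2 and RXRG midpoints were 2738 bp apart, and at chromosome 4, 224236576 to 224240586, they were 1820.5 bp apart, so that the receptors shared no base in either. The region with the most receptor peaks, 3 of each, was at chromosome 9, 73605259 to 73607282.

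The most isolated member was at chromosome 1, 112076414 to 112076986. This 573 bp region had no YY1, TEAD1 or SREBP1 peak within 1254 kb, and its RXRG peak of 201 bp lay wholly within its NR2F2 peak of 399 bp. The second, at chromosome 14, 26915033 to 26915266, was 234 bp wide and 1156 kb from any of the 3. The 2 runs of 4 adjacent members lay on chromosome 13 from 71912700 to 72181810, over 269 kb, and on chromosome 4 from 47811240 to 48696357, over 885 kb. The closest-set run of 3 spanned 14.2 kb on chromosome 8, from 126105415 to 126119641.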

How the data were processed

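The deposited lists give chromosome, start and end of each peak. Only the SREBP1 list adds a deposited score, which is 1 in every peak and was not used. Per the submitters' processing notes, the build was rn5 and the tools included MACS2, Bowtie2, deepTools, bedtools and bcl2fastq (2.20.0.422), with no settings. Thresholds and controls of the peak calls, not given in the sources used here, could change every count.

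Each of the 6 lists comes from 1 library. Mitochondrial peaks were dropped, starts were counted from 1, and overlap meant at least 1 bp. Regions were sorted by which factors they met, and all 3538 members lay on the 21 placed chromosomes. Distances run from edge to edge. Regions on unplaced sequences, where the YY1 list has no peak, were left out of distances to YY1. The 4 width classes hold nearly equal numbers of H3K27ac peaks. Regions were named by rank in width, shared bases, number of receptor peaks, distance to excluded factors and length of runs. The functions were tested on simulated data. Members, lists and comparisons were chosen with earlier results of these data known. A genome or annotation of rn5 was not used here, so sequence, genes and cell type markers were not analysed. Python 3.11.15, NumPy 2.4.6, SciPy 1.17.1 and Matplotlib 3.10.9 were used.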

Additional observations from a re-analysis of the deposited data

Results flagged for a closer look

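Peaks on the mitochondrial genome, which no comparison used, numbered 13 in the NR2F2 list, 16 in the RXRG list and 9 each in the YY1 and TEAD1 lists, above the 3 that a count of 0 allows. There were 2 for H3K27ac and 0 for SREBP1.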

How the results depend on the processing

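The 9 results were recomputed under 7 alternatives, and 47 of the 63 values stayed within the interval of the reported value, or within 1.5 times for the number of regions. Asking that receptor and H3K27ac peaks share 50% or more of the shorter one gave 94.0% with overlapping receptors, a midpoint distance of 67 bp and 7.79% with a member as nearest neighbour. Receptor midpoints inside the H3K27ac peak gave 93.8%, 66 bp and 7.81%. Extending the excluded factors by 500 bp gave 31.4% with one of them within 10 kb, and not excluding SREBP1, which leaves 2 factors to meet, gave 26.7%. Leaving out receptor peaks narrower than their list's median gave 1615 regions, a width of 659 bp, 95.8% with overlapping receptors, 83.5 bp between midpoints, 30.1% with an excluded factor within 10 kb, 3.84% with a member as nearest neighbour, 2.17% with 2 or more NR2F2 peaks and 47.4% with no YY1 within 50 kb. The last result and the number of surrounding H3K27ac peaks were added after the data were seen. H3K27ac peaks joined across gaps of up to 1 kb moved none of the 9. Placed chromosomes only could not move them, since all 3538 members lay there, and its unchanged values are among the 47. No paired analysis was possible because each target has 1 library. Read depth is unknown, so a missing peak may be a site below the threshold of its list.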

Other observations

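The spacing of the deposited H3K27ac peaks was uneven at short range, which bears on every distance between regions. For 1.78% of all H3K27ac peaks the nearest other one began within 1 kb, and for 14.5% at 1 to 2 kb. At 2 to 3, 3 to 4, 4 to 5 and 5 to 6 kb the shares were 8.72%, 7.90%, 10.3% and 10.6%. Among the NR2F2-RXRG regions the shares in the same order were 0.791%, 7.57%, 5.31%, 4.89%, 6.67% and 11.6%, and 4.30% at 6 to 7 kb. In these regions 5 to 6 kb was the most frequent of the 10 classes of 1 kb up to 10 kb. The cause was not tested.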
